A study of Mus musculus with 2 samples.

Results

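The miR-34 and miR-449 family comprises 6 mouse microRNA (miRNA) genes at 3 loci, of 1973 miRNA gene rows counted in embryonic forebrain. The members were chosen by name: Mir449a, Mir449b and Mir449c of the Mir449 cluster, Mir34b and Mir34c, which lie side by side, and Mir34a. All 6 had a row, and all 6 were detected, meaning at least 10 counts in each library. The family was picked with the sense-strand counts of these same libraries already known, so levels and differences between libraries are given as descriptions, with no test.

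Small RNAs below 30 nt were sequenced from forebrain tissue of B6NCrl mouse embryos at 15.5 days. There was 1 group with 2 biological replicates, and each pooled embryos of both sexes, 78 in replicate 1 and 62 in replicate 2. All embryos were labelled healthy, no treatment or engineered allele was named, and the tissue was taken whole, without sorting of cell types.

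A miRNA is cut from a hairpin and represses messenger RNAs that hold a match to its seed, the bases near the 5′ end that lead the pairing. The miR-34 and miR-449 family is best known from multiciliated cells, which line airways, oviduct, efferent ducts, brain ventricles and choroid plexus. In mice, loss of its 3 loci together leaves these cells with few motile cilia, and a repressed target that matters there is Ccp110, an inhibitor of basal body maturation. Mir34a stands apart in being widely expressed and induced by p53. The choroid plexus, the epithelium that secretes cerebrospinal fluid, is part of the forebrain ventricles and carries tufts of cilia.

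The family shared its seed across all loci for which RefSeq lists a 5p arm, the mature miRNA cut from the 5′ side of the hairpin. These sequences are shown because they are the feature that joins the members; bases 2 to 8 are in capitals.
mmu-miR-449a-5p: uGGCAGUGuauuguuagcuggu
mmu-miR-449c-5p: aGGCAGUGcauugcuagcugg
mmu-miR-34a-5p: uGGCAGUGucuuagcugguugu
mmu-miR-34b-5p: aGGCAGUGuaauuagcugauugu

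All 4 carry GGCAGUG at bases 2 to 8, and no other of the 1738 mature mouse miRNAs in the RefSeq table (build GRCm38.p6) does. The letters GGCAGUG, searched on the strand of the precursor, occur in the RefSeq hairpins of all 5 members that have one and in 17 of 1005 mouse hairpins (1.69%). Mir449b has no RefSeq entry and is named only. Compared base by base from the 5′ end without gaps, miR-449a-5p matched miR-449c-5p at 18 of 21 bases and miR-34a-5p at 15 of 22. By the same count miR-34a-5p matched miR-34b-5p at 11 of 22 bases, 4 of them outside the seed.

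The hairpin of Mir34c is shown with the same letters in capitals, as the RefSeq table lists its 3p arm.
Mir34c hairpin: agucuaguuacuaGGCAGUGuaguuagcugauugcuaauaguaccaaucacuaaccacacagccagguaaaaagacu
The best ungapped match of miR-34b-5p in it had 2 mismatches over 23 bases, A11G and U23C, counted from 1 at the 5′ end of miR-34b-5p, with the Mir34c base last.

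On the 3p side the seeds were not common to the family. Mir34b and Mir34c shared AUCACUA, and the other 3 listed 3p arms each had a seed of their own; bases 2 to 8 are again in capitals.
mmu-miR-34b-3p: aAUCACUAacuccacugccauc
mmu-miR-34c-3p: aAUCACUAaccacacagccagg
mmu-miR-34a-3p: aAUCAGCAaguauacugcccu
mmu-miR-449a-3p: cAGCUAACaugcgacugcucuc
mmu-miR-449c-3p: cAGUUGCUagcugcacuacccu

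Reads placed at more than 1 locus were outside the gene counts, so exact copies elsewhere would lower a member's count. None of the 9 mature sequences listed for members occurred exactly in another RefSeq mouse hairpin. That comparison did not cover Mir449b or miR-34c-5p, the 5p arm of the second most abundant member. The closest was miR-34b-5p in the hairpin of Mir34c, with the 2 mismatches above, and then miR-449c-5p in the hairpin of Mir449a, with 3 mismatches over 21 bases. Matches elsewhere in the genome, and reads shorter than the mature sequence, were not examined. The counts also pool both arms of a hairpin, so 5p and 3p levels cannot be told apart.

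Replicate 1 held 4464927 counts on the strand of a miRNA gene and replicate 2 held 4753555. Levels are normalised counts, CPM, scaled to 1000000 over the miRNA genes of each library, and 3 counts, the limit that a count of 0 allows, were 0.672 CPM in replicate 1 and 0.631 CPM in replicate 2. Since no molecular identifiers were reported, reads are not counts of molecules, and every interval below is a 95% Clopper-Pearson interval for counting error only. Beside the tissue label, levels of 5 forebrain neural miRNAs are given, among them neuronal Mir137 and progenitor Mir92b. All 5 were detected, and their sums were 21149 and 21543 CPM in replicates 1 and 2. The list was made with earlier results known, so this is no test of the label. It left out neural Mir124a-1, Mir124a-2, Mir124a-3 and Mir9-2, with means of 2.80, 2.25, 1.05 and 3.26 CPM. Gene counts leave out reads placed at more than 1 locus, which may lower genes with numbered copies such as these. Their low values thus do not show that the mature miRNAs were scarce. The 5 listed miRNAs of the Hox clusters, which mark posterior body levels, summed to 327 and 418 CPM. Of these 5, 3 were detected and 1 had no count in either library. Among them Mir10a and Mir10b had means of 217.5 and 126.9 CPM. The labels do not say whether the pools shared a litter or a dissection day, and part of their spread may be technical.

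The 6 genes summed to 5906 CPM in replicate 1, against 3357 CPM in replicate 2, a mean of 4632 ± 1802 CPM (SD, n = 2). These sums were 0.591% of the miRNA gene counts of replicate 1 and 0.336% of those of replicate 2. The sum was 1.76-fold higher in replicate 1, a log2 ratio of 0.81 (interval 0.79 to 0.84). In bulk tissue, fewer cells of a type and less RNA per cell cannot be told apart, here and in each level below.

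Mir449a supplied most of the family. It had 4925 CPM in replicate 1 (21990 counts, interval 4860 to 4990) and 2839 CPM in replicate 2 (13495 counts, interval 2791 to 2887). Its mean of 3882 ± 1475 CPM (SD, n = 2) placed it at rank 42 of 1973 rows, above the median of the 370 detected genes, 110.9 CPM. Levels and ranks leave out reads placed at more than 1 locus, so other miRNAs with exact copies may rank too low. Its share of the family was 83.4% in replicate 1 (interval 82.9 to 83.8) and 84.6% in replicate 2 (interval 84.0 to 85.1).

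Mir34c came next, with 886 CPM in replicate 1 and 436 CPM in replicate 2, a mean of 661 ± 318 CPM and rank 100. Its share of the family was 15.0% in replicate 1 (interval 14.6 to 15.4) and 13.0% in replicate 2 (interval 12.5 to 13.5). Mir449a and Mir34c were the members above the median detected gene. The other 4 genes together held 1.61% of the family in replicate 1 and 2.46% in replicate 2.

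Mir34a, the p53-induced member, had 54.4 CPM in replicate 1 and 50.7 CPM in replicate 2 (52.6 ± 2.63 CPM, rank 228). Mir34b, the neighbour of Mir34c, had 28.0 CPM and 23.6 CPM (25.8 ± 3.14 CPM, rank 267). Both were below the median detected gene in each library.

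Mir449c had 6.27 CPM in replicate 1 and 5.68 CPM in replicate 2, from 28 and 27 counts. Mir449b had 6.27 CPM and 2.52 CPM, from 28 and 12 counts. These 2 neighbours of Mir449a were close to the detection limit and ranked 319 and 333.

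In the order Mir449a, Mir34c, Mir34a, Mir34b, Mir449c, Mir449b, each gene lay above the next in both libraries and without overlap of their ranges, except that the ranges of Mir449c and Mir449b overlapped and their counts were equal in replicate 1. Mature miRNAs of the family are 21 to 23 bases long, so counts were compared without a correction for length.

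**Figure D1:**
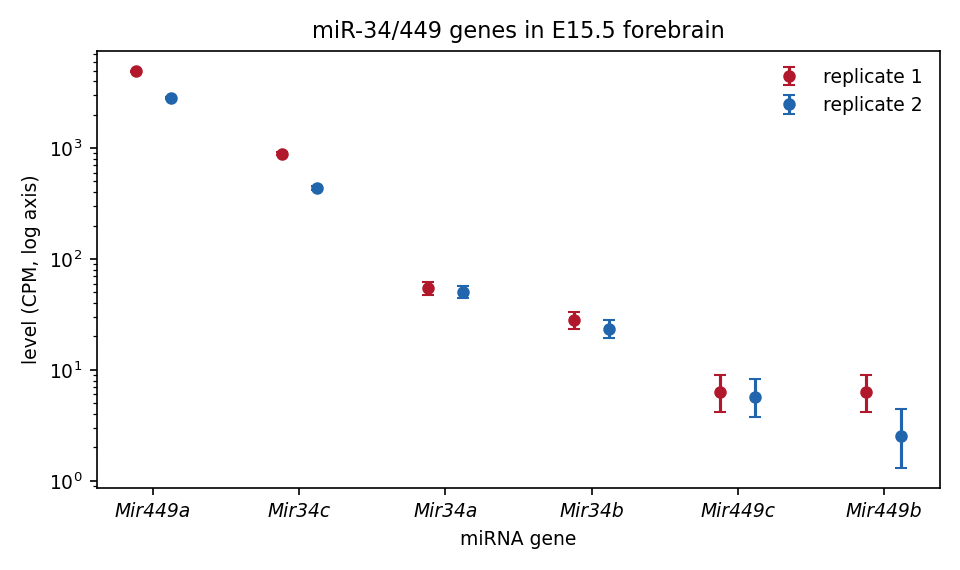
Level of each member in CPM on a log axis, with genes ordered by mean level, replicate 1 left and replicate 2 right, and bars for the 95% counting interval. Mir449a stands at 4925 and 2839 CPM and Mir449b at 6.27 and 2.52 CPM, the top and the bottom of the family.

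Neighbouring members differed far more than the libraries did. The Mir449 cluster lies on the plus strand of chromosome 13 (mm10), inside the protein-coding gene Cdc20b (113035111 to 113091195, same strand). Cdc20b is a relative of the cell-cycle regulator Cdc20. Each member of the cluster is intronic, overlapping no annotated exon of Cdc20b, and whether they share the same intron was not checked. In the direction of transcription the cluster runs Mir449c (113035983 to 113036091), Mir449b (113037419 to 113037498) and Mir449a (113037534 to 113037624), with 35 bases between Mir449b and Mir449a. Mir449a exceeded Mir449b 785-fold in replicate 1 (interval 543 to 1182) and 1125-fold in replicate 2 (interval 644 to 2177). It exceeded Mir449c 785-fold in replicate 1 (interval 543 to 1182) and 499.8-fold in replicate 2 (interval 343 to 759). Both low members thus sit in the same host gene, on the same strand, as the highest one.

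The hairpins of Mir449a and Mir449c are shown because these neighbours share a seed and a host gene and stand far apart in level. The letters GGCAGUG are in capitals.
Mir449a hairpin: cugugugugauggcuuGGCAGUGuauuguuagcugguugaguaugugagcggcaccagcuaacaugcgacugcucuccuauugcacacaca
Mir449c hairpin: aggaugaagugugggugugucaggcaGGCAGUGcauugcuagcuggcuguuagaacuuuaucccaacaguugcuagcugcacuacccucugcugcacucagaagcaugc

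Mir34b (51103562 to 51103645) and Mir34c (51103034 to 51103110) lie on the minus strand of chromosome 9, with 451 bases between them. The annotation places both in an intron of Btg4, a protein-coding gene on the opposite strand. Mir34c exceeded Mir34b 31.6-fold in replicate 1 (interval 26.5 to 38.1) and 18.5-fold in replicate 2 (interval 15.3 to 22.6). These intervals did not overlap, so the ratio within the pair also moved between the libraries beyond counting error.

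Mir34a lies alone on the plus strand of chromosome 4 (150068454 to 150068555). Its 3′ end overlaps an exon of Gm37795 (150068539 to 150070997, same strand), a record of unsettled type, and the nearest protein-coding gene is 18809 bases away. Mir449a exceeded Mir34a 90.5-fold in replicate 1 (interval 79.7 to 103.1) and 56.0-fold in replicate 2 (interval 49.3 to 63.9).

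**Figure D2:**
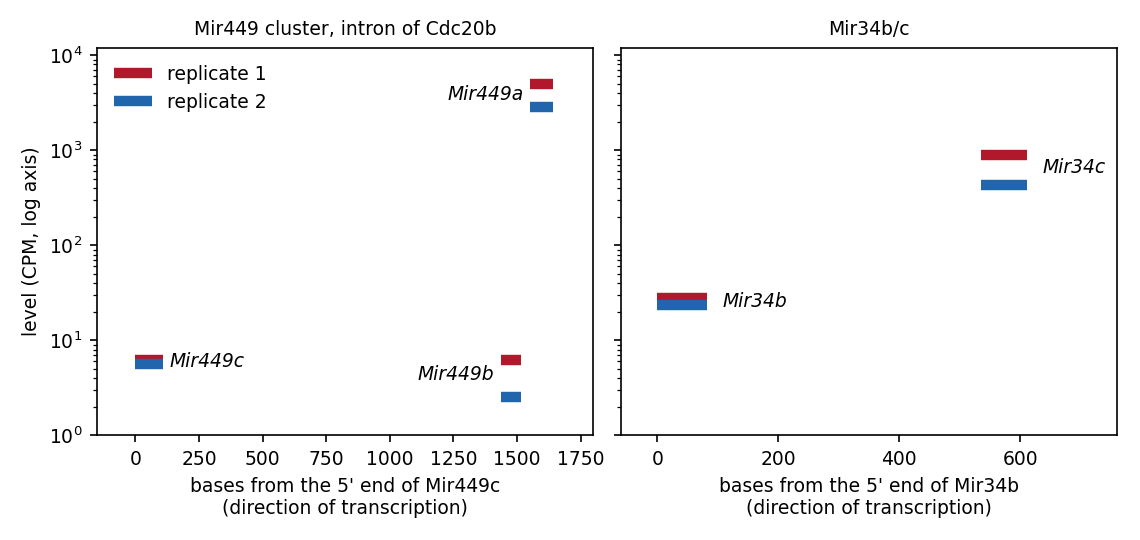
Level in CPM on a log axis against distance in bases from the 5′ end of the first gene, for the Mir449 cluster and Mir34b/c, with a bar as long as each gene for replicate 1 and replicate 2. The last gene of each locus, Mir449a or Mir34c, is the highest, by 499.8-fold or more over its neighbours in the Mir449 cluster and by 18.5-fold or more at Mir34b/c.

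Strand gave a readout that the choice of members had not used. All 6 members had 0 counts on the opposite strand in both libraries, which allows an opposite-strand count of up to 0.0114% of the family's sense counts in replicate 1 and 0.0188% in replicate 2. Over all miRNA genes, opposite-strand counts made up 1.59% and 1.49% of the counts on either strand. That total includes rows that were not detected on the sense strand. Among the 370 detected genes, 332 (89.7%) had no opposite-strand count either.

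The libraries differed unequally across the family. The ratio given is the log2 of the CPM in replicate 1 over that in replicate 2, after adding 0.5 to both counts, so a positive value means higher in replicate 1. Over the 370 detected genes the median ratio was -0.05 and the median absolute ratio 0.19. A ratio of at least 0.5 in replicate 1's favour was reached by 3 of the 6 members, against 6.22% of detected genes (23 of 370). In either direction 17% of detected genes passed that size. The members' median was 0.52, and nothing about the family is read from this count, since earlier results of the same libraries were known when it was chosen.

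Mir34c had a ratio of 1.02 (interval 0.95 to 1.10) and Mir449a a ratio of 0.79 (interval 0.76 to 0.83). Of the 370 detected genes, 3 had a higher ratio than Mir34c and 8 a higher one than Mir449a. Mir449b had a ratio of 1.28 on 28 and 12 counts, with an interval of 0.29 to 2.42.

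The remaining members had smaller ratios with intervals that included 0. Mir34a was at 0.10 (interval -0.16 to 0.37), Mir34b at 0.25 (interval -0.13 to 0.63) and Mir449c at 0.14 (interval -0.67 to 0.96). The intervals of Mir34a and Mir34b lay wholly below that of Mir449a, so within these 2 libraries they did not share its difference to the same degree. The interval of Mir449c included the ratio of Mir449a, and depth does not separate them.

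Of members with at least 100 counts in each library, 2 of 4, Mir34c and Mir449a, were past 0.5 in replicate 1's favour, against 4.83% of the 269 genes counted that often. Mir34a and Mir34b were the other 2. With 1 library on each side of the ratio, the differences have no replicate check.

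**Figure D3:**
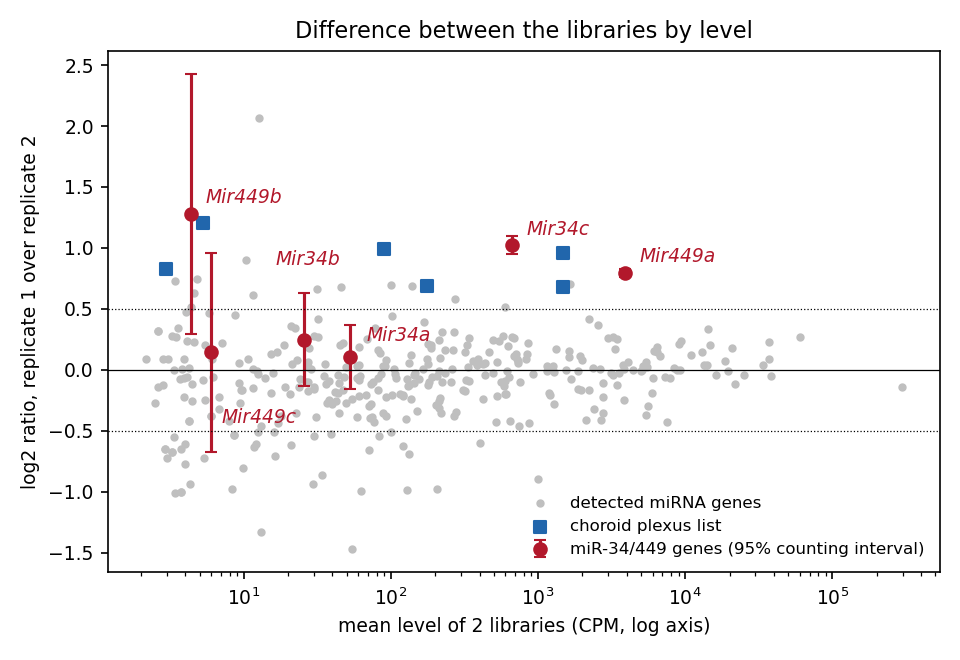
Log2 ratio of replicate 1 over replicate 2 against mean level in CPM on a log axis for the 370 detected genes (grey), the choroid plexus list (squares) and the family (circles, bars for the 95% counting interval), with dotted lines at 0.5 either way. Mir34c at 1.02, Mir449a at 0.79 and Mir449b at 1.28 lie above the upper line, as the squares do. Mir34a, Mir34b and Mir449c lie between the lines.

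Markers of choroid plexus were also higher in replicate 1. The list held 7 miRNAs, of which 6 had a row: Mir204 and Mir211, known from choroid plexus and pigment epithelium, and Mir448, Mir1264, Mir1298 and Mir1912 of the serotonin receptor gene Htr2c, whose transcript is abundant in choroid plexus. Mir1911 was not matched and is not analysed here. All 6 were detected and none was at 0. They summed to 4117 CPM in replicate 1, against 2343 CPM in replicate 2, a log2 ratio of 0.81 (interval 0.78 to 0.85), beside 0.81 for the miR-34 and miR-449 family. The family's sum is mostly Mir449a and Mir34c, and 1 ratio per gene cannot show a shared course.

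Single ratios on the list ran from 0.68 for Mir204 to 1.20 for Mir211. At least 0.5 in replicate 1's favour was reached by 6 of 6, against 6.22% of detected genes (23 of 370). Mir211 rested on 33 and 15 counts and Mir1912, at 0.83, on 17 and 10. The list was made with earlier results known and left out Mir764, another miRNA of Htr2c, which was not detected by the count minimum (6 counts in replicate 1 and 5 in replicate 2, ratio 0.33). Mir1298, the Htr2c miRNA with the most counts, had 1946 CPM in replicate 1, against 1004 CPM in replicate 2. The part of choroid plexus content in the family's difference was not tested.

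Sums of the epithelial, forebrain neural and Hox lists were not higher in replicate 1. Of 5 epithelial miRNAs of the Mir200 family, 0 were past 0.5 in replicate 1's favour, against 6.22% of detected genes. Mir200a was past 0.5 in replicate 2's favour, at -1.47. That list summed to 599.6 CPM in replicate 1, against 633 CPM in replicate 2. The forebrain neural list had 0 of 5 past 0.5 in either direction, against 17% of detected genes. The log2 ratio of its sum was -0.03. At 5 genes per list, counts of 0 are near these shares and are not read as a result. For the Hox list the log2 ratio of the sum was -0.36 (interval -0.46 to -0.26). The multiciliated list is the family without Mir34a, so it is no separate list. Its 5 members summed to a ratio of 0.82, with Mir34b at 0.25 and Mir449c at 0.14 within it. They are miRNAs that multiciliated cells carry, and without messenger RNA or sorted cells the label of the cell type could not be checked further in these data.

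By likeness of the library ratio, the nearest of 265 other genes that reached 100 counts in both libraries were Mir7b (0.71), Mir383 (0.69), Mir182 (0.68), Mir448 (0.68) and Gm23935 (0.68), beside 0.81 for the family's sum. Over 2 libraries this likeness is a single number per gene. Mir448 of this set is on the choroid plexus list, Mir7b is a miRNA of neuroendocrine cells, and Mir182 belongs to a cluster of sensory organs. Other Mir7 genes with at least 100 counts in both libraries were not alike: Mir7-1 was at 0.51, Mir7-2 at 0.01 and Mir7j at -0.06.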

How the data were processed

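Read counts per miRNA gene, without normalization, were used as deposited by the authors, from 2 libraries of 1 group. Per the deposited README text the genome was mm10 and the annotation GENCODE M4; aligner, counter and strand setting are not stated there or in the labels. Of 3 count columns the one with the larger total of the single-strand columns was taken as sense. The 4 rows that name no gene were left out of totals. Multi-mapping reads were 44.6% and 42.4% of replicates 1 and 2, and unmapped reads 14.3% and 18.2%. Counts of different small RNAs are not calibrated for their recovery in library preparation.

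Names and positions came from GENCODE M21, on the same build, by gene identifier (1894 of 1973 rows matched), and sequences from RefSeq, build GRCm38.p6, whose hairpins had the same positions as the 5 matched members. CPM, ratios with 0.5 counts added and exact intervals were computed with Python 3.11.15, pandas 2.3.3 and SciPy 1.17.1. The ratio and its interval were tried on data simulated with counting error only. That trial cannot show how they behave under other spread between real libraries. Alternatives used edgeR 4.0.16 (TMM) and DESeq2 1.42.0 (size factors), other totals, the either-strand column, other count minimums and added counts, and each library alone. No test between conditions exists with 1 group.

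Members, lists and named genes were chosen with earlier results of these data known. Named were the 6 members, the listed markers and the 5 genes nearest in library ratio to the family's sum. Any other gene whose RefSeq mature miRNA shared the members' seed was to be named too, and no such gene was found. Rows without a RefSeq mature sequence could not be searched. Genes named as left out of a list, the other Mir7 genes, and those named only in the closing section, were chosen after their values were seen.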

Additional observations from a re-analysis of the deposited data

How the results depend on the processing

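The family's log2 ratio stayed above 0 under the 5 alternatives run for it. They were TMM factors, DESeq2 size factors, the total without the most abundant gene, the either-strand column and 1 added count. As no member had opposite-strand counts, the either-strand column too changed only the scaling. The sum of its levels was 6552 CPM with the most abundant gene left out of the total and 1733 CPM with the 4 rows that name no gene added to it, and each library alone gave 3357 to 5906 CPM. The ratio was 0.86 with TMM factors and 0.76 without the most abundant gene. The ratio of Mir34a, the lowest, ran from 0.04 to 0.14 and that of Mir34c from 0.96 to 1.06 over 5 alternatives. The share of genes with a ratio of at least 0.5 either way was 34.6% (205 of 592) with at least 1 count in each library and 10.04% (27 of 269) with at least 100, where fewer genes enter by construction. Depth limits Mir449b and Mir449c most. No paired analysis was possible because there is 1 group.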

Other observations

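Of genes that reached 100 counts in both libraries, 13 were at least 0.5 higher in replicate 1 on the log2 scale. They were 2 family members (Mir34c and Mir449a), 4 of the choroid plexus list (Mir1264, Mir1298, Mir448 and Mir204) and 7 others, Mir7b, Mir383, Mir182, Gm23935, Mir96, Mir375 and Mir7-1. Mir375, a miRNA of endocrine cells, had 328 CPM in replicate 1 and 219 CPM in replicate 2. Mir96, from the same cluster as Mir182, had 38.3 CPM in replicate 1 and 24.2 CPM in replicate 2. These genes were picked by their ratio, so the makeup of the set is a description.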
